A study of Mus musculus with 6 samples.

Results

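Ighmbp2, Dync1h1, Bicd2, Vapb, Sod1, Tardbp, Plekhg5 and Vrk1 are the mouse forms of genes that are mutated in motor neuron diseases other than SMN1-linked spinal muscular atrophy (SMA), among them distal motor neuropathies and amyotrophic lateral sclerosis (ALS). These 8 genes were taken by name. They stand among 25576 genes listed in at least 1 of 6 bulk-seq libraries of mouse spinal cord. All 8 were listed in every library and passed the minimum mean of 0.5 FPKM over the libraries, which left 17088 genes to test.

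The libraries came from whole spinal cord of FVB mice at postnatal day 4, 3 labelled SMA (mSmn-/-, hSMN22tg/0) and 3 labelled control (mSmn+/-, hSMN22tg/0). Mice of both groups therefore carried the human SMN2 transgene, and control mice were themselves heterozygous for the Smn knockout. SMA and control mice are given as offspring of Smn+/- mice and mild Smn-/- mice with SMN2 2tg/2tg, in the severe Taiwanese model. The study's methods name triplicates with n = 1 per group, so the p-values below measure only the spread between these libraries, which may be technical. Values are FPKM, fragments scaled to the exon length of a gene and to the mapped fragments of a library, and they allow levels to be compared between genes per length. Where 3 values are given for a group, they follow replicates 1, 2 and 3. Depth in reads is unknown. The files list between 21197 and 22296 genes per library, with a summed FPKM between 346181 and 413653.

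Motor neurons carry cargo over the longest axons of the body, and several of these genes serve that traffic. Dync1h1 encodes the heavy chain of cytoplasmic dynein, the motor that pulls cargo along microtubules towards the cell body, and Bicd2 encodes an adaptor that joins dynein and dynactin to cargo. Tardbp encodes TDP-43, an RNA-binding protein of splicing and RNA stability, and Ighmbp2 encodes an RNA and DNA helicase linked to translation. Vapb is an anchor of the endoplasmic reticulum at membrane contact sites, Sod1 is the cytosolic superoxide dismutase, Plekhg5 activates small GTPases and acts in autophagy of synaptic vesicles, and Vrk1 is a nuclear kinase that phosphorylates chromatin proteins. Whole-tissue values hold neurons, glia, vessels and nerve roots together, so fewer cells of a type and less RNA per cell cannot be told apart.

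Smn1, the targeted gene, was listed at 10.4, 8.64 and 11.9 FPKM in control and at 8.48, 9.30 and 11.1 FPKM in SMA. The groups overlapped, and 1 value per gene leaves unseen which part of it is transcribed. Smn1 therefore does not check the genotype labels, and every direction given here rests on those labels.

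The tissue label was checked against marker genes. All 15 pan-neuronal genes were listed in every library, led by Meg3 at 675 to 978 FPKM. Among 12 motor neuron genes, Ret had the highest mean at 22.2 to 45.2 FPKM, although another gene of the list was above it in the 3 control libraries, while Chat, the enzyme that makes acetylcholine, reached 1.53 to 3.06 FPKM. Isl1 lay between 2.34 and 3.81 FPKM and Mnx1 between 0.272 and 0.613 FPKM, so Mnx1 stayed under the minimum mean. The myelin gene Mbp (375 to 695 FPKM), the astrocyte gene Aldoc (138 to 267 FPKM) and the microglial gene P2ry12 (12.05 to 19.2 FPKM) led their lists by mean FPKM.

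Control replicate 2 stood apart from the other 5 libraries. A list of 20 hepatocyte genes summed to 37958 FPKM there, 9.18% of its total, and to between 66.1 and 143 FPKM elsewhere, at most 0.0394% of a total. All 20 were highest in control replicate 2 and were listed in every library. Alb, the most abundant, was at 15894 FPKM in that library and at 24.6 to 56.2 FPKM in the others. A list of 7 erythroid genes summed to 18823 FPKM there and to between 1115 and 1861 FPKM in the other 5, with Hbb-bs at 7026 FPKM against 424 to 694 FPKM. Pan-neuronal genes went the other way, with a summed level of 2703 FPKM in control replicate 2 and of 3767 to 4243 FPKM in the other libraries, and 13 of the 15 were lowest there. The fold change of each of the 8 genes is therefore given with and without control replicate 2, whose part in the differences was not tested otherwise. Schwann cell genes set a different library apart. A list of 6 summed to 14.2 FPKM in SMA replicate 3 and to between 60.2 and 197 FPKM in the other 5. Of these genes, Pmp2 was not listed in SMA replicate 3 (taken as 0) and was at 1.96 to 6.82 FPKM in the other 5.

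Over the 6 libraries the 8 genes spanned from 2.55 FPKM, for Ighmbp2 in control replicate 2, to 114 FPKM, for Sod1 in the same library. By mean FPKM over the libraries the order was Dync1h1 (98.95), Sod1 (90.9), Tardbp (60.03), Vapb (28.3), Bicd2 (19.7), Plekhg5 (6.77), Vrk1 (4.34) and Ighmbp2 (3.77). Dync1h1 lay between the 97.2nd and 98.3rd percentile of the genes listed in a library, and Ighmbp2 between the 41.2nd and 54.5th. Over the 6 libraries the ranges of Dync1h1 and Sod1, of Vapb and Bicd2, of Plekhg5 and Vrk1 and of Vrk1 and Ighmbp2 overlapped. Within libraries, Dync1h1 was above Sod1 in 5 of 6, Vapb above Bicd2 in 6 of 6 (1.27 to 1.63 times as high), Plekhg5 above Vrk1 in 5 of 6 and Vrk1 above Ighmbp2 in 4 of 6. Without control replicate 2 only Vrk1 and Ighmbp2 still overlapped: the lowest Dync1h1 value was then 98.9 FPKM against 95.2 FPKM for the highest of Sod1, Vapb 27.3 against 22.8 FPKM for Bicd2, and Plekhg5 6.22 against 4.45 FPKM for Vrk1. The remaining neighbours, Sod1 over Tardbp, Tardbp over Vapb and Bicd2 over Plekhg5, were apart in all libraries.

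**Figure D1:**
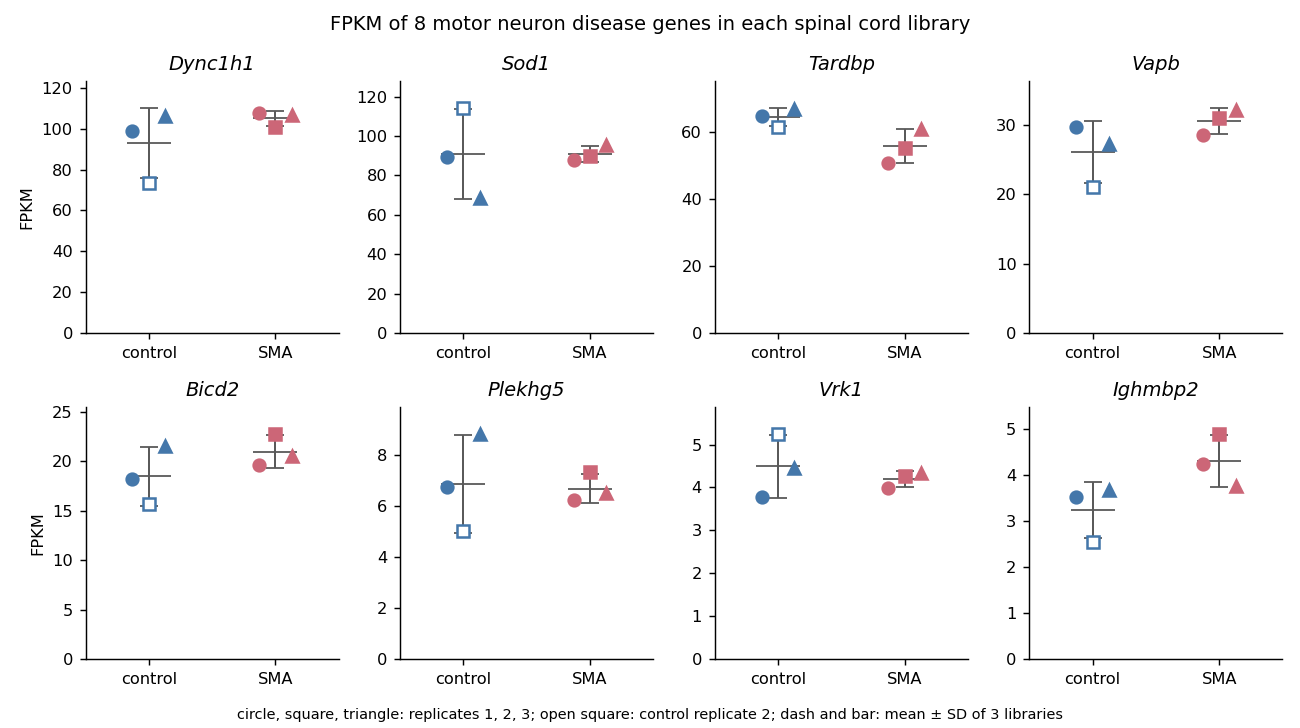
FPKM of each gene (vertical axes from 0, own scale per gene) in the 3 control and 3 SMA libraries, with symbols for replicates 1, 2 and 3, control replicate 2 drawn open, and mean ± SD as dash and bar. Tardbp is lower and Ighmbp2 higher in all SMA libraries than in all control libraries, and in 5 of the 8 genes the open symbol is the lowest.

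The comparison of SMA with control asks whether the loss of SMN goes with a different transcript level of these other disease genes in the same tissue. No gene of the 8 passed the test over all genes, and the differences stayed small. Tardbp was 13.5% lower in mean FPKM in the SMA libraries and Ighmbp2 was 32.3% higher, and in these 2 genes the groups did not overlap. In all genes tested, 17% had groups that did not overlap, 10.3% with SMA higher and 6.67% with SMA lower, so that 2 of 8 is no result about these genes in particular. At an adjusted p under 0.05 limma called 0 of the 8 and 0 of all genes (0%), and at an unadjusted p under 0.05 it called 0 of the 8 and 5.79% of all genes (3.4% higher, 2.39% lower). Of the 8, 0 had a fold over 2 with that p, as 0.17% of all genes did (0.0702% higher, 0.0995% lower).

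The log2 fold changes (of FPKM + 1, so that changes at low levels come out smaller) ran from -0.21 for Tardbp to 0.32 for Ighmbp2. Their median was 0.11, against 0.04 over all genes tested, and 5 of the 8 were positive, against 58.0% of all genes. Without control replicate 2 the median was 0.05, against 0.00 over the 16574 genes then tested. Tardbp was then the only member at an unadjusted p under 0.05, lower as 5.2% of all genes were, with 5.27% higher and 10.5% in either direction. In that setting 2 of the 8 had groups without overlap, against 28.1% of all genes (14.2% higher, 13.9% lower). An adjusted p under 0.05 was reached by 0 of the 8 in limma (1 of 8 at an unadjusted p under 0.05) and 0.0121% of all genes, and a fold over 2 with an unadjusted p under 0.05 by 0 of the 8 and 0.139% of all genes (0.0965% higher, 0.0422% lower).

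**Figure D2:**
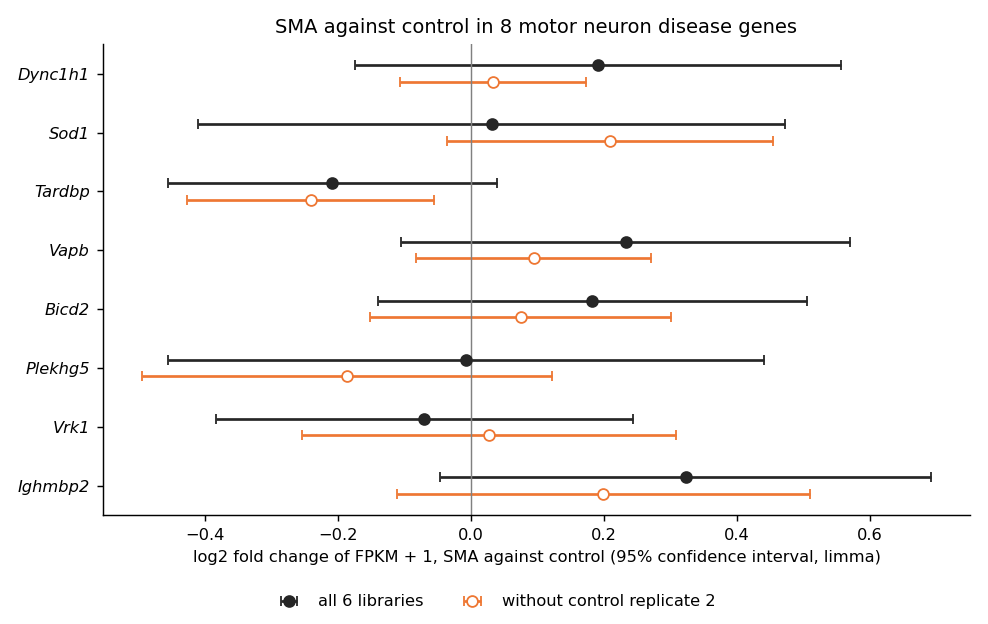
Log2 fold change of FPKM + 1 (horizontal axis, SMA against control) with its 95% confidence interval from limma for each gene, over all 6 libraries (filled) and without control replicate 2 (open). All 8 intervals over the 6 libraries include 0, and without control replicate 2 the interval of Tardbp, from -0.43 to -0.05, does not.

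Tardbp, the gene of TDP-43, lies on chromosome 4 from 148612382 to 148627019 on the minus strand (GRCm38, GENCODE M21). Control libraries gave 64.9, 61.4 and 66.8 FPKM and SMA libraries 50.9, 55.3 and 60.9 FPKM. Every SMA library lay below every control library, and the nearest pair, control replicate 2 and SMA replicate 3, were close to each other. The mean was 64.4 ± 2.74 FPKM (SD, n = 3) in control and 55.7 ± 5.03 FPKM (SD, n = 3) in SMA. The log2 fold change was -0.21 (limma, standard error 0.103, p = 0.0857, adjusted p = 0.683), and an exact two-sided permutation test gave p = 0.1, the smallest that 3 libraries against 3 allow. Without control replicate 2 it was -0.24 (limma, standard error 0.0798, adjusted p = 0.398), and 740 of 16574 genes (4.46%) had a smaller p. It was negative under all 16 alternative settings, from -0.50 to -0.15, with an unadjusted p under 0.05 in 5 of them. Other filters, robust variances and the replicate block cannot change the log2 fold change, and all settings reuse the same libraries. With libraries scaled to the same total FPKM the groups overlapped.

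Reads of Tardbp can be shared with other genes. Masp2, a complement protease gene mostly expressed in liver, is on the opposite strand and shares 1817 exonic bases with Tardbp, 23.3% of the exonic bases of Tardbp, and the files give both genes the same span. Masp2 was listed at 26.7 FPKM in control replicate 2, was not listed in SMA replicate 1 (taken as 0), and was at 0.0952 to 0.361 FPKM in the other 4 libraries. The libraries were strand-specific, but whether strand was used in computing FPKM is not given in the sources used here. The processed pseudogene Gm13886 matches Tardbp at 94.2% over 1202 bases and was listed at 0.384 to 0.762 FPKM. The part of shared reads in the Tardbp values was not tested.

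The stretch upstream of the annotated transcripts of Tardbp is shown because this gene gave the lower group values. From its window in RefSeq's promoter table (GRCm38.p6), only the part before the annotated gene is given, chr4:148627020-148627246 on the minus strand. These 227 bases hold 3 copies of the GC box GGGCGG on the opposite strand (capitals).
Tardbp: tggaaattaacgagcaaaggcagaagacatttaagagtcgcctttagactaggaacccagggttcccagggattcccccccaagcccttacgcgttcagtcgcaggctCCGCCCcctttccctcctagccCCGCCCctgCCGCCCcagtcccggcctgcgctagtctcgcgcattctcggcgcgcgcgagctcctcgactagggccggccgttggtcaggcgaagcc
In the first promoter window that the table lists for each gene, 7 of the 8 held GGGCGG on either strand, against 35.9% of 27025 promoters. Vrk1, with 4 windows listed, did not hold it in the first. For Plekhg5 the first window, of 3 listed, lies inside the gene, with its matches from 152086798 to 152086848. It is therefore not at the annotated start of the gene. Other motifs were sought in the same windows. CCAAT was in 2 of the 8, against 37.9% of promoters. TGACGTCA (1.88% of promoters) and CACGTG (7.24%) were in 0 of the 8.

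RNA-binding proteins of the hnRNP family and related genes were counted beside Tardbp. Of 19 hnRNP and related genes, 1 was higher and 0 were lower in SMA at an unadjusted p under 0.05, against 3.4% and 2.39% of all genes. The median log2 fold change of the 19 was 0.10. The groups did not overlap in 6 of the 19, with SMA higher in all 6, against 10.3% higher and 6.67% lower in all genes. Leaving out control replicate 2, SMA was higher in 7 and lower in 3 without overlap (14.2% and 13.9% in all genes). At an unadjusted p under 0.05, 2 were then higher and 0 lower (5.27% and 5.2% in all genes). Whether Tardbp differs from this list was not tested. The gene that passed was Ptbp2, a neuronal splicing regulator, at 81.9, 61.05 and 78.1 FPKM in control and at 87.3, 94.5 and 94.95 FPKM in SMA (log2 fold change 0.33, limma, adjusted p = 0.683, and 0.20 without control replicate 2). Hnrnpa2b1, the most abundant of the list, lay between 218 and 244 FPKM with overlapping groups. Matr3, which encodes the nuclear matrix protein matrin 3, was at 169, 120 and 158 FPKM in control and at 169, 174 and 170 FPKM in SMA.

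Within each library, Tardbp was set against Matr3, a ratio that does not depend on how a library is scaled. The ratio was 0.385, 0.512 and 0.423 in control and 0.301, 0.318 and 0.359 in SMA, lower in every SMA library than in every control library, with control replicate 2 the highest (exact two-sided permutation test over 6 libraries, p = 0.1). Tardbp was lower and Matr3 higher in every SMA library than in every control library. The separation of the ratio, and its p, therefore follow from these genes and add nothing to them. The ratio belongs to 17 ratios computed, over which the Benjamini-Hochberg adjusted p was 0.34.

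**Figure D3:**
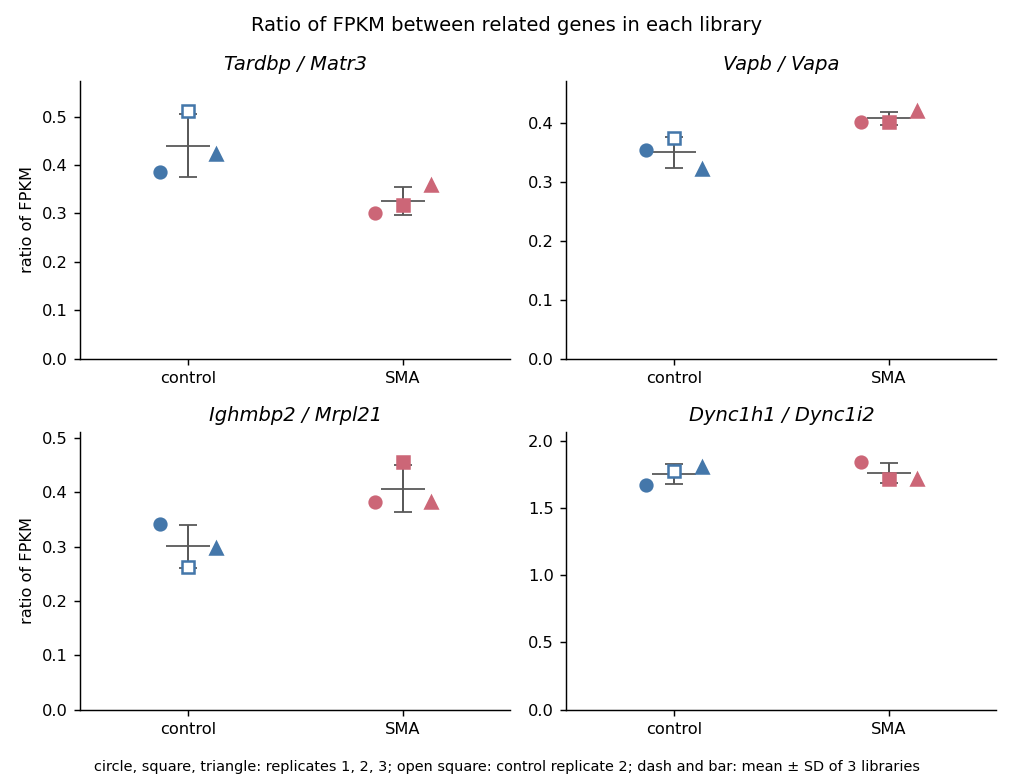
Ratio of FPKM between 2 genes of the same library (vertical axes from 0, own scale per ratio) in 3 control and 3 SMA libraries, with control replicate 2 drawn open and mean ± SD as dash and bar. Tardbp to Matr3 is lower in all SMA libraries, and Vapb to Vapa and Ighmbp2 to Mrpl21 are higher there. Dync1h1 to Dync1i2 overlaps between 1.67 and 1.85. The panels show some of the 17 ratios computed.

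Ighmbp2, mutated in SMA with respiratory distress, lies on chromosome 19 from 3259076 to 3283017 on the minus strand. Its FPKM was 3.51, 2.55 and 3.68 in control and 4.23, 4.89 and 3.75 in SMA. Every SMA library was above every control library, but SMA replicate 3 was close to control replicate 3. The mean was 3.24 ± 0.608 FPKM (SD, n = 3) in control and 4.29 ± 0.568 FPKM (SD, n = 3) in SMA. The log2 fold change was 0.32 (limma, standard error 0.155, p = 0.0770, adjusted p = 0.683), with an exact two-sided permutation p = 0.1. Without control replicate 2 the SMA mean was 19.5% higher instead of 32.3%, and the log2 fold change was 0.20 (limma, adjusted p = 0.637). It was positive under all 16 alternative settings, from 0.04 to 0.40. Here too, other filters, robust variances and the replicate block could not change the log2 fold change. The groups overlapped with libraries scaled to the same total FPKM and with centring on pan-neuronal genes.

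**Figure D4:**
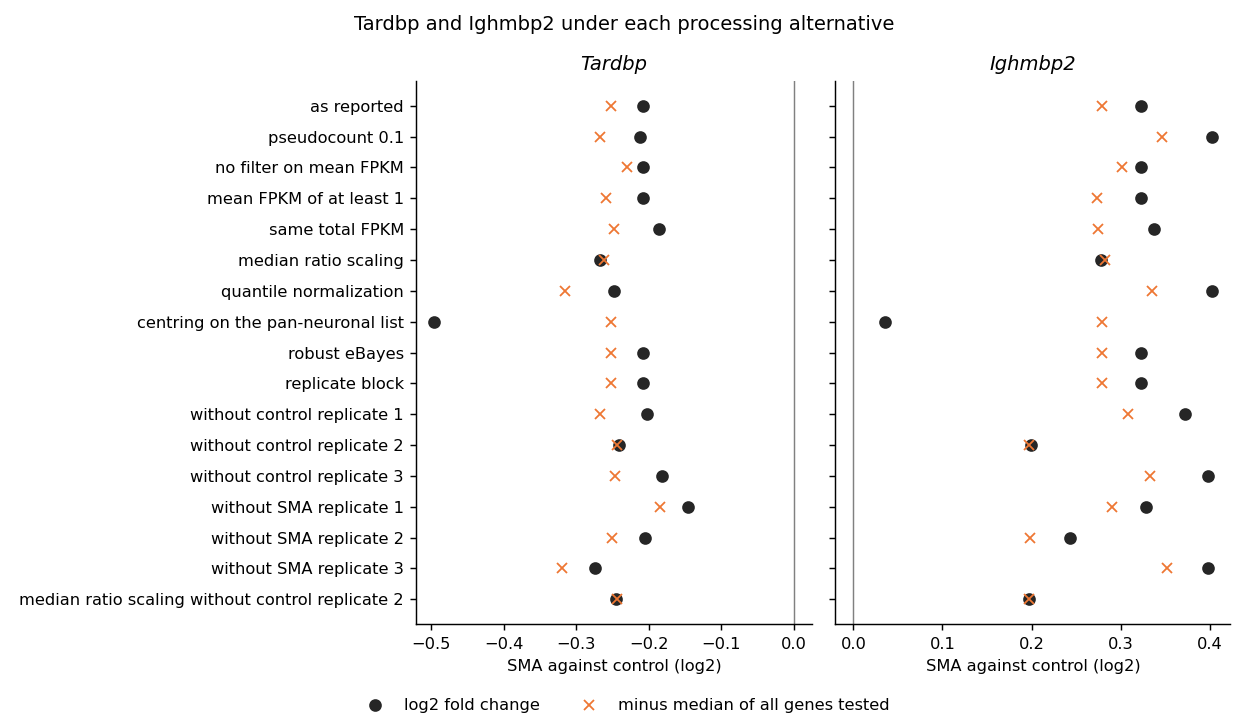
Log2 fold change of SMA against control (horizontal axes) for Tardbp and Ighmbp2 under each setting (vertical axis), as computed (filled circles) and minus the median of all genes tested (crosses). Tardbp stays below 0, from -0.50 to -0.15, and Ighmbp2 above 0, from 0.04 to 0.40.

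Ighmbp2 shares its start region with Mrpl21, a mitochondrial ribosomal protein gene on the plus strand. RefSeq starts the genes at positions 3283010 and 3283042 of chromosome 19, with 31 bases between, and in GENCODE their exons share 117 bases, 1.97% of the exonic bases of Ighmbp2. The files give both genes the same span. Mrpl21 was listed at 10.3, 9.71 and 12.4 FPKM in control and at 11.1, 10.7 and 9.81 FPKM in SMA, with overlapping groups, and the ratio of Ighmbp2 to Mrpl21 was 0.342, 0.262 and 0.297 in control and 0.382, 0.457 and 0.383 in SMA. The 30 bases at chr19:3283038-3283067, minus strand, span the start of Mrpl21, where the motif CCGGAAG (capitals, bound by ETS factors) is found.
Ighmbp2: ccacagtcccaaCCGGAAGcggaagcagcg
On either strand, CCGGAAG was in the windows of Ighmbp2 and Plekhg5 (the window inside the gene) and in 9.12% of all promoters.

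Genes related to Ighmbp2 by sequence or function were counted beside it. Of 17 tested genes of UPF1-like helicases and IGHMBP2 partners, 0 were higher and 0 lower at an unadjusted p under 0.05, and their median log2 fold change was 0.02. Of 16 tested without control replicate 2, 0 were higher and 2 lower, with a median of -0.02. In all genes 5.27% were higher and 5.2% lower in that setting, and 3.4% and 2.39% over the 6 libraries. Whether Ighmbp2 differs from this list was not tested. Gtf3c1, the most abundant of them and a subunit of the factor that recruits RNA polymerase to transfer RNA genes, was at 24.1 to 29.3 FPKM with overlapping groups.

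Dync1h1 lies on chromosome 12 from 110601452 to 110666945 on the plus strand. Values were 98.9, 73.6 and 106.2 FPKM in control and 107.6, 100.9 and 106.5 FPKM in SMA. The SMA libraries were close together, and of the control libraries only replicate 3 lay within their range, with replicates 1 and 2 below it. The log2 fold change was 0.19 (limma, standard error 0.153, adjusted p = 0.683) and 0.03 without control replicate 2 (95% interval -0.11 to 0.17). Without that library the coefficient of variation of Dync1h1 over the libraries was 3.69%, against 13.0% with it. The antisense gene Gm17111 shares 48 exonic bases with it, and Gm35558 shares 403.

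The other dynein subunits had the same low library. Of 13 genes for intermediate, light intermediate and light chains, 0 were higher and 0 lower in SMA at an unadjusted p under 0.05 (0 and 1 without control replicate 2), and 11 were lowest in control replicate 2. In all genes 3.4% were higher and 2.39% lower (5.27% and 5.2% without control replicate 2), and 44.9% were lowest in that library. The summed level of the 13 genes was 486, 317 and 411 FPKM in control and 426, 438 and 462 FPKM in SMA. Dynll2 and Dynll1, light chains used by dynein and by other complexes, were the most abundant at 63.1 to 109 and 59.8 to 83.4 FPKM. Dync1h1 was compared with both intermediate chain genes. Its ratio to Dync1i2 lay between 1.67 and 1.85 in all 6 libraries, with control replicate 2 at 1.78. Its ratio to Dync1i1 was 5.67 in control replicate 2 and 3.84 to 4.61 in the other 5, so these ratios did not go together in that library.

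Of 15 dynactin and regulator genes, 0 were higher and 1 was lower at an unadjusted p under 0.05 (0 and 2 without control replicate 2), and 13 were lowest in control replicate 2. In all genes 3.4% were higher and 2.39% lower (5.27% and 5.2% without control replicate 2), and 44.9% were lowest in that library. Pafah1b1, the gene of the dynein regulator Lis1, was at 134, 83.4 and 120 FPKM in control and at 122, 128 and 130.5 FPKM in SMA. Dctn1, the largest dynactin subunit, was at 79.1, 65.5 and 78.3 FPKM in control and at 88.4, 81.6 and 88.2 FPKM in SMA, where every SMA library was above every control library (log2 fold change 0.21, limma, adjusted p = 0.683, and 0.13 without control replicate 2). The gene that passed was Nde1, a partner of Lis1 in dividing and migrating progenitors, at 7.42, 9.05 and 7.75 FPKM in control and at 6.61, 5.38 and 6.41 FPKM in SMA (log2 fold change -0.35, limma, adjusted p = 0.683, and -0.27 without control replicate 2). Of 12 cell division genes, 0 were higher and 2 lower at an unadjusted p under 0.05, against 2.39% lower in all genes (0 and 5 without control replicate 2, against 5.2% lower). Against 24.7% of all genes, all 12 were highest in control replicate 2. They summed to 87.5, 221 and 74.3 FPKM in control and to 66.6, 49.4 and 59.8 FPKM in SMA, and Pcna, the most abundant, had a log2 fold change of -0.67 (limma, adjusted p = 0.683, and -0.42 without control replicate 2). Their part in the Nde1 difference was not tested.

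Bicd2 lies on chromosome 13 from 49341585 to 49387026 on the plus strand. The control level was 18.2, 15.6 and 21.6 FPKM, and the SMA level 19.6, 22.8 and 20.6 FPKM. The groups overlapped, again with control replicate 2 the lowest. SMA against control gave a log2 fold change of 0.18 (limma, standard error 0.135, adjusted p = 0.683) and 0.07 without control replicate 2. Its paralog Bicd1 was listed at 18.2 to 28.2 FPKM and was lowest in the same library, and the ratio of Bicd2 to Bicd1 lay between 0.709 and 0.859.

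Among 16 tested dynein adaptors, 1 was higher and 1 lower at an unadjusted p under 0.05 (1 and 1 without control replicate 2, where the lower gene was not Rilp). In all genes 3.4% were higher and 2.39% lower (5.27% and 5.2% without control replicate 2). Hook1, which links dynein to early endosomes, was at 27.2, 28.9 and 26.0 FPKM in control and at 29.99, 32.8 and 33.8 FPKM in SMA (log2 fold change 0.23, limma, adjusted p = 0.683, and 0.26 without control replicate 2). Rilp, an adaptor at late endosomes and lysosomes, was at 1.82, 1.79 and 1.49 FPKM in control and at 0.881, 1.36 and 0.973 FPKM in SMA (log2 fold change -0.39, limma, adjusted p = 0.683, and -0.36 without control replicate 2). Neither gene passed over all genes. Hap1, the huntingtin-associated adaptor with the highest mean of the list, reached 155, 93.1 and 153 FPKM in control and 163, 163 and 172 FPKM in SMA. Rab6b, a neuronal Golgi GTPase, had the same low library, at 143, 82.2 and 141 FPKM in control and 150, 151 and 152 FPKM in SMA. In both genes every SMA library was above every control library, and the log2 fold change was 0.35 (limma, adjusted p = 0.683). Without control replicate 2 it was 0.11 for Hap1 and 0.09 for Rab6b.

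Dync1h1, Bicd2 and Vrk1 share a sequence feature near their starts that was noticed on reading the promoters. The core of the element bound by ZNF143 was found on the gene's own strand in the windows of these 3 genes and, on either strand, in 535 of 27025 promoters (1.98%). The matches are shown in capitals with 14 bases on each side, at chr12:110601290-110601329, chr13:49341374-49341413 and chr12:106010115-106010154 (plus strand, GRCm38.p6), upstream of the annotated transcripts of these genes. The stretch of Dync1h1 overlaps the antisense gene Gm35558.
Dync1h1: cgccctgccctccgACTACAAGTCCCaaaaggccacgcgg
Bicd2: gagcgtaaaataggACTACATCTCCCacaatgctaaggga
Vrk1: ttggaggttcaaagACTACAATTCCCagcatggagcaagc
The FPKM of the 3 genes did not go together: control replicate 2 was lowest for Dync1h1 and Bicd2 and highest for Vrk1.

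Vapb lies on chromosome 2 from 173737511 to 173784336 on the plus strand. In FPKM, control libraries were at 29.7, 21.1 and 27.3 and SMA libraries at 28.4, 30.9 and 32.2. SMA replicate 1 lay below control replicate 1, so the groups overlapped. Its log2 fold change was 0.23 (limma, standard error 0.141, adjusted p = 0.683) and 0.09 without control replicate 2. The window of Vapb was the only 1 among the 8 genes with the core bound by NRF1, which 4.78% of all promoters hold.

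Vapa, the other major VAP protein, was more abundant than Vapb in every library. Control had 84.1, 56.4 and 84.8 FPKM and SMA 71.0, 77.0 and 76.6 FPKM. The ratio of Vapb to Vapa was 0.353, 0.374 and 0.322 in control and 0.401, 0.401 and 0.420 in SMA. It was higher in every SMA library than in every control library (exact two-sided permutation test over 6 libraries, p = 0.1). That p is the smallest this test allows, and over the 17 ratios computed the Benjamini-Hochberg adjusted p was 0.34. In the ratio of Vapb to Vapa, control replicate 2 was the control library nearest to SMA. Of 24 VAP partners at membrane contacts, 0 were higher and 0 lower at an unadjusted p under 0.05, against 3.4% and 2.39% of all genes. The median log2 fold change of these partners was 0.02. Without control replicate 2, 1 of them was higher and 3 were lower, against 5.27% and 5.2% of all genes, among them Vapa with a log2 fold change of -0.17 (limma, adjusted p = 0.406). Pitpnm1, a phosphatidylinositol transfer protein gene and after Vapa the most abundant, was at 55.2, 40.2 and 61.3 FPKM in control and at 63.2, 63.1 and 62.2 FPKM in SMA.

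Sod1 lies on chromosome 16 from 90220754 to 90226329 on the plus strand. Its level was 89.4, 114 and 68.8 FPKM in control and 87.6, 89.97 and 95.2 FPKM in SMA. The 3 control libraries included both the highest and the lowest value, and the SMA libraries lay between them. Between the groups the log2 fold change was 0.03 (limma, standard error 0.185, adjusted p = 0.954). Leaving out control replicate 2 gave 0.21 (limma, adjusted p = 0.540) and leaving out control replicate 3 gave -0.15, so that the sign depended on which control library was kept. The processed pseudogene Gm8566 matches Sod1 at 97.8% over 465 bases and was listed only in SMA replicate 1, at 0.138 FPKM, and taken as 0 in the other 5 libraries.

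Sod1 was the only 1 of the 8 genes with the TATA box letters TATAAA in its window, which 14.2% of all promoters hold. They are shown in capitals at chr16:90220705-90220744, plus strand, GRCm38.p6.
Sod1: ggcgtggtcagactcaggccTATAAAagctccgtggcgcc

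The mitochondrial Sod2 was at 34.2 to 40.5 FPKM, with Sod1 at 1.77 to 3.34 times its level, and the extracellular Sod3 was at 0.818 to 2.85 FPKM. Of 17 tested genes of superoxide and peroxide defence other than Sod1, 0 were higher and 1 was lower at an unadjusted p under 0.05, against 2.39% lower in all genes, and the median log2 fold change was -0.29. The list moved with control replicate 2, where 13 of its 18 listed genes had their highest value, as 24.7% of all genes did. It summed to 768, 1231 and 711 FPKM in control and to 667, 698 and 681 FPKM in SMA. Without that library the median was -0.05, and 0 genes were higher and 3 lower (Prdx1, Prdx2 and Prdx3) at an unadjusted p under 0.05, against 5.2% lower in all genes. The gene that passed was Prdx3, the mitochondrial peroxiredoxin, at 38.2, 40.9 and 38.3 FPKM in control and at 30.3, 30.1 and 33.8 FPKM in SMA (log2 fold change -0.31, limma, adjusted p = 0.683, and -0.28 without control replicate 2), and its control replicate 2 was not apart. Prdx2, the most abundant of the list, was at 212, 245 and 191 FPKM in control and at 172, 181 and 172 FPKM in SMA (log2 fold change -0.30, limma, adjusted p = 0.683, and -0.20 without control replicate 2). Prdx1 was at 176 FPKM in control replicate 2. The other control libraries had 56.0 and 52.2 FPKM and SMA 48.1, 45.5 and 42.6 FPKM, a log2 fold change of -0.25 without control replicate 2 (limma, adjusted p = 0.360).

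Plekhg5 lies on chromosome 4 from 152072498 to 152115400 on the plus strand. FPKM values were 6.74, 5.01 and 8.82 in control and 6.22, 7.32 and 6.49 in SMA. Control held the lowest and the highest library, as for Sod1, but with the opposite order of replicates 2 and 3. The log2 fold change was -0.01 (limma, standard error 0.188, adjusted p = 0.989) and -0.19 without control replicate 2.

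The genes around Plekhg5 gave the list with the most lower genes among these partner lists. Of 13 tested PLEKHG relatives and small GTPase partners, 0 were higher and 4 were lower at an unadjusted p under 0.05, against 2.39% lower in all genes (0 and 6 without control replicate 2, against 5.2% lower), and 0 passed an adjusted p of 0.05. Rhoc, a GTPase of cell shape and migration, was at 13.5, 17.1 and 17.3 FPKM in control and at 10.1, 9.86 and 7.77 FPKM in SMA, a log2 fold change of -0.72 (limma, standard error 0.145, adjusted p = 0.683, and -0.67 without control replicate 2). Plekhg3, an exchange factor for Rac and Cdc42, was at 2.10, 3.60 and 2.78 FPKM in control and at 1.65, 1.68 and 1.34 FPKM in SMA (log2 fold change -0.57, limma, adjusted p = 0.683, and -0.42 without control replicate 2). Plekhg2 and Rhoa were the others, and Cdc42 and Rac1, the most abundant of the list, had overlapping groups at 170 to 235 and 80.1 to 98.2 FPKM. Of 6 endothelial genes, 4 were lower at an unadjusted p under 0.05, with and without control replicate 2, and the list summed to 52.3, 60.1 and 54.1 FPKM in control and to 42.3, 32.8 and 33.2 FPKM in SMA, led by Cldn5, a tight junction gene, at 20.4 to 25.8 FPKM in control and 14.4 to 16.4 FPKM in SMA. All 6 endothelial genes were listed in every library. Of 6 fibroblast genes, also listed in every library and led by mean FPKM by Col1a2, 1 was lower at that p (0 without control replicate 2). They summed to 166, 174 and 150 FPKM in control and to 181, 78.5 and 37.98 FPKM in SMA, lowest in SMA replicate 3 as Rhoc and Plekhg3 were. Of 6 Schwann cell genes, 0 were higher and 0 lower at that p, and Pmp2 had the same order over the SMA libraries at 3.77 and 2.74 FPKM in replicates 1 and 2 and none listed in replicate 3. The part of these 3 lists in the difference of Rhoc and Plekhg3 was not tested.

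Vrk1 lies on chromosome 12 from 106010228 to 106077426 on the plus strand. The control libraries held 3.77, 5.25 and 4.45 FPKM, the SMA libraries 3.99, 4.28 and 4.33 FPKM. The SMA libraries lay inside the control range. Its log2 fold change was -0.07 (limma, standard error 0.131, adjusted p = 0.838) and 0.03 without control replicate 2 (95% interval -0.25 to 0.31). Its relative Vrk2 was at 0.482 to 0.662 FPKM in 5 libraries and at 2.53 FPKM in control replicate 2, while Vrk3 was at 6.51 to 9.02 FPKM. Of 12 VRK family and nuclear partner genes, 0 were higher and 0 lower at an unadjusted p under 0.05 (1 and 0 without control replicate 2). In all genes 3.4% were higher and 2.39% lower (5.27% and 5.2% without control replicate 2). Banf1, a chromatin-bridging substrate of VRK1, was at 50.3, 41.9 and 40.1 FPKM in control and at 38.8, 37.9 and 39.8 FPKM in SMA, and Ran, the nuclear transport GTPase, lay between 46.4 and 47.7 FPKM in all libraries.

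The wider lists of motor neuron disease genes were counted in the same way, against 3.4% higher and 2.39% lower in all genes. Of 31 tested ALS genes outside the 8, 0 were higher and 1 was lower at an unadjusted p under 0.05, with a median log2 fold change of 0.06. The lower gene was Chchd10, a mitochondrial intermembrane protein gene, at 46.7, 63.3 and 53.4 FPKM in control and at 39.8, 38.6 and 39.5 FPKM in SMA (log2 fold change -0.45, limma, adjusted p = 0.683, and -0.34 without control replicate 2, adjusted p = 0.287). Of 33 tested genes of other hereditary motor neuropathies, 1 was higher and 1 lower. Leaving out control replicate 2 gave 1 higher and 1 lower of 30 ALS genes and 2 higher and 2 lower of 34 neuropathy genes, against 5.27% higher and 5.2% lower in all genes. Hspb1, a small heat shock protein gene, was at 2.40, 2.08 and 3.46 FPKM in control and at 3.74, 4.49 and 4.94 FPKM in SMA (log2 fold change 0.58, limma, adjusted p = 0.683, and 0.46 without control replicate 2). Dnajb2, a neuronal co-chaperone gene, was at 27.2, 23.6 and 28.6 FPKM in control and at 20.3, 22.0 and 22.7 FPKM in SMA (log2 fold change -0.28, limma, adjusted p = 0.683, and -0.35 without control replicate 2). The groups of these 3 genes did not overlap, as in 17% of all genes, and none passed over all genes. They were named by their p, so the separation adds little to it. Against 10.3% higher and 6.67% lower in all genes, SMA was higher without overlap in 4 and lower in 3 of the 31 ALS genes. Of the 33 neuropathy genes, it was higher in 4 and lower in 1. Uba1, the ubiquitin-activating enzyme gene of X-linked SMA and the most abundant of that list, was at 140, 97.9 and 126 FPKM in control and at 141, 133 and 133 FPKM in SMA, and Reep1, an endoplasmic reticulum shaping gene, was at 55.8 to 94.3 FPKM with overlapping groups.

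The 8 genes stood differently in control replicate 2. Its FPKM over the median of the other 5 libraries was 0.679 for Ighmbp2, 0.693 for Dync1h1, 0.711 for Vapb, 0.743 for Plekhg5 and 0.761 for Bicd2. For these 5 genes it was the lowest library, as for 44.9% of all genes tested. Tardbp stood at 1.01, and Vrk1 (1.23) and Sod1 (1.28) were highest there, as were 24.7% of all genes. The median over all genes was 0.889, with quartiles of 0.711 and 1.18. Over the gene lists the median of this ratio was 0.537 for pan-neuronal genes, 0.616 for motor neuron genes, 0.745 for dynein subunits, 1.35 for superoxide and peroxide defence, 3.88 for cell division, 15.3 for erythroid and 402 for hepatocyte genes. The 12 motor neuron genes summed to 126, 83.4 and 183 FPKM in control and to 119, 135 and 131 FPKM in SMA. Of the 11 tested, 0 had an unadjusted p under 0.05, against 5.79% of all genes. In the other 5 libraries, 0 of the 11 were higher and 3 lower at that p, against 5.27% higher and 5.2% lower in all genes, with a median log2 fold change of -0.20, and 0 passed an adjusted p of 0.05 in limma.

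**Figure D5:**
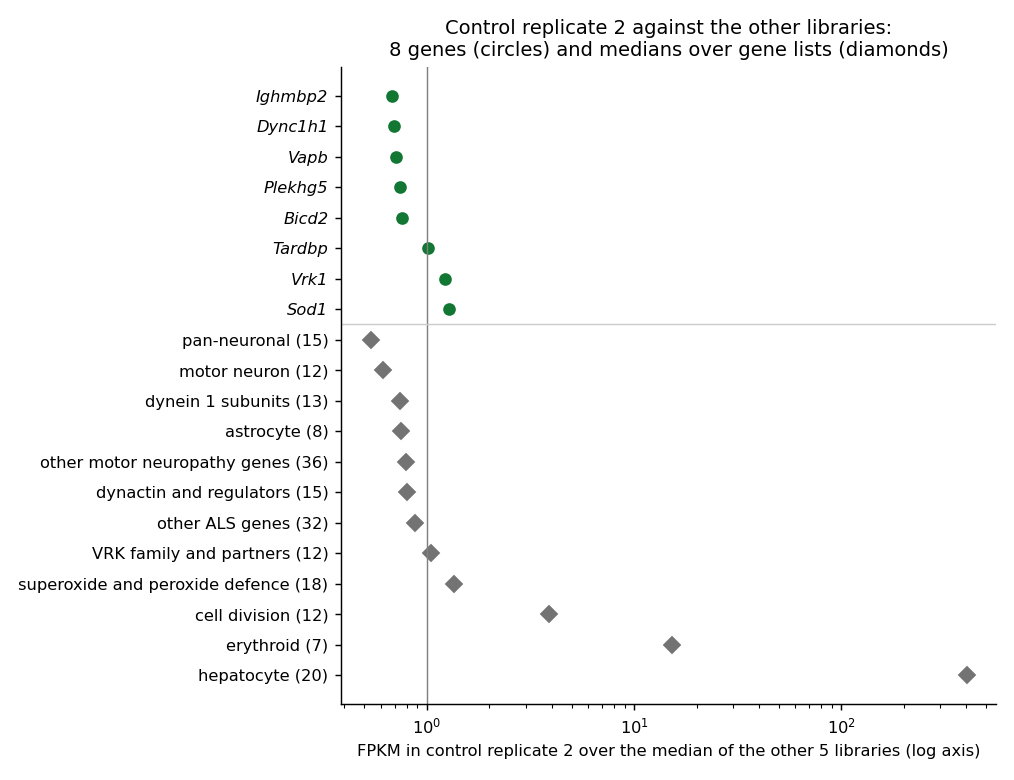
FPKM in control replicate 2 over the median of the other 5 libraries (logarithmic horizontal axis) for each of the 8 genes (circles) and as the median over gene lists (diamonds, number of listed genes in brackets). Of the 8 genes, 5 lie between 0.679 and 0.761, and the lists run from 0.537 for pan-neuronal to 402 for hepatocyte genes.

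Genes with the most similar profile were taken by Pearson's r of log2(FPKM + 1) over the 6 libraries among genes whose mean reached 10 FPKM. With 6 points, 1 of them control replicate 2, many genes reach a high r: 1990 of 7135 genes had an r over 0.9 with Dync1h1 and 1649 with Vapb, but only 12 with Tardbp. The genes nearest to Tardbp were Canx, the calnexin gene (r = 0.985, and 0.986 over 5 libraries without control replicate 2), and the phosphate transporter gene Slc20a1 (0.959 and 0.969). Canx was at 111, 109 and 114 FPKM in control and at 96.6, 104 and 108 FPKM in SMA. Nearest to Ighmbp2 were Ikbkap, the Elongator subunit gene of familial dysautonomia (0.993, and 0.983 without control replicate 2), and Mrps24 (0.989 and 0.967). Ikbkap was at 28.5, 24.005 and 30.6 FPKM in control and at 33.6, 36.3 and 29.9 FPKM in SMA. The other pairs follow with r over 6 libraries and then over 5 without control replicate 2. For Dync1h1 they were Lrp8 (0.998 and 0.969) and Stx1a (0.998 and 0.981), for Bicd2 Fam214a (0.995 and 0.986) and Cyp46a1 (0.990 and 0.978), and for Vapb Rabgap1l (0.999 and 0.999) and Sgcb (0.996 and 0.983). For Sod1 they were Fbxo8 (0.995 and 0.989) and Vps54 (0.983 and 0.978), for Plekhg5 Uqcrh (0.991 and 0.991) and Strn (0.990 and 0.982), and for Vrk1 Fastk (0.986 and 0.970) and Luc7l2 (0.968 and 0.964). The 6 points hold both groups, so r describes the shape over these libraries and carries no test.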

How the data were processed

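RNA of whole spinal cord was depleted of ribosomal RNA and made into strand-specific libraries, which the authors aligned with HISAT2 to mm10 and quantified with Cufflinks as FPKM for each library; versions and annotation are not given in the sources used here. The deposited files leave out genes without FPKM in a library, and these were given 0 there. SMA and control libraries, 3 each, were compared on log2(FPKM + 1) with lmFit and eBayes(trend) of limma 3.58.1 in R 4.3.3, two-sided, for genes whose mean reached 0.5 FPKM, with Benjamini-Hochberg adjustment over all 17088 genes. The script was tested on simulated data. Exact permutation tests cover the 20 assignments of the libraries. The members and lists were chosen with earlier results of these data known. Named genes are the members, Smn1, paralogs, per partner list the 2 most abundant and at most 2 with the smallest unadjusted p under 0.05, per marker list the most abundant with Chat, Isl1 and Mnx1, and 2 genes of similar profile per member. Some of these are not reported here. Dync1i1, Dync1i2, Plekhg2, Rhoa, Pmp2 and genes that overlap or copy members were named after their values were seen, and the motifs of ETS factors and of ZNF143 after the promoters were read. List genes were matched by symbol, 4 of them (among them C9orf72) by identifier, and 4 list genes were not analysed here. Copies were sought with blastn 2.17.0 among GENCODE M21 transcripts (at least 90% identity over 200 bases). All 8 members matched RefSeq's promoter table, and the first window listed was used. Alternatives were other pseudocounts, filters, scalings, robust variances, the replicate number as a block and leaving out each library. Depth in reads is unknown, so no counting error is given.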

Additional observations from a re-analysis of the deposited data

How the results depend on the processing

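The comparison was repeated under 16 alternatives, of which median ratio scaling without control replicate 2 was chosen after the data were seen. The cause of the shifts given here was not tested.

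Of the 8 genes, 0 had an unadjusted p under 0.05 in the reported setting. Tardbp had one under centring on the pan-neuronal list, median ratio scaling, quantile normalization, leaving out control replicate 2, and median ratio scaling without control replicate 2, so that the count was 1 in each, and 0 to 1 over the 6 settings that leave out a library. Groups without overlap were found in 2 genes, in 1 (Tardbp) under centring on the pan-neuronal list, in 0 with the same total FPKM, and in 2 to 4 when a library was left out. In all genes the share was 17% in the reported setting. The count of 4 came without control replicate 1 or 3. There 3697 of 17115 and 3538 of 17131 genes had SMA higher without overlap, and 2056 and 2319 had SMA lower. With the same total FPKM, 1200 of 17069 genes had SMA higher and 1117 lower.

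Some log2 fold changes changed sign. Centring on the pan-neuronal list gave -0.10 for Bicd2, -0.10 for Dync1h1, -0.26 for Sod1 and -0.0540 for Vapb. It moved the median of all genes from 0.04 to -0.24, and each gene kept its distance from that median. Plekhg5 was 0.0568 under quantile normalization and 0.00941 with the same total FPKM, and ran from -0.19 to 0.17 when a library was left out, with 0.04 without SMA replicate 1, 0.01 without SMA replicate 3 and 0.17 without control replicate 3. Sod1 was -0.0277 under median ratio scaling and ran from -0.15 (without control replicate 3) to 0.21 when a library was left out, with -0.00 without SMA replicate 3. Vrk1 was 0.0250 under median ratio scaling without control replicate 2, and ran from -0.17 to 0.0276 (without control replicate 2) when a library was left out.

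Over all genes, 1757 had every SMA library above every control library. This was 114 under centring on the pan-neuronal list and 2313 to 3697 when a library was left out. Every SMA library was below in 1140 genes, in 3049 under centring on the pan-neuronal list, in 2360 under median ratio scaling without control replicate 2, and in 1495 to 2319 when a library was left out. With an adjusted p under 0.05 limma called 0 genes (990 at an unadjusted p under 0.05), 1 under median ratio scaling without control replicate 2, and 0 to 2 when a library was left out.

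At an unadjusted p under 0.05, 581 genes were higher. There were 17 under centring on the pan-neuronal list, 882 without a filter, 338 with the same total FPKM and 214 to 1040 when a library was left out. Lower were 409, with 897 under median ratio scaling without control replicate 2 and 125 to 862 when a library was left out. With a fold over 2 as well, 12 were higher, 4 under centring on the pan-neuronal list, 64 with a pseudocount of 0.1 and 12 to 28 when a library was left out. Lower by that measure were 17, with 48 under centring on the pan-neuronal list, 7 under median ratio scaling without control replicate 2, 125 with a pseudocount of 0.1, 11 under quantile normalization and 4 to 131 when a library was left out.

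With the replicate number as a block, 356 genes were higher at an unadjusted p under 0.05, and 35 were lower with a fold over 2 as well. Deviations of same-numbered libraries had correlations of -0.04, 0.02 and 0.08, so the numbers were not treated as pairs, and the block changed the call of no gene of the 8.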
